A study of Mus musculus with 9 samples.

Results

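The cytosolic ribosome is built from a large and a small subunit, and its protein parts are encoded by one of the most highly expressed gene families of a growing cell. The family was read here by gene symbol: Rpl or Rps followed by a number, with an optional letter or copy number, plus Rpsa, Rplp0, Rplp1 and Rplp2, and without rows named as pseudogenes by "-ps". The rule found 89 of the 56748 genes of the deposited table. Of these, 77 were canonical members (46 of the large and 31 of the small subunit), and 12 were paralogs or retrogenes, which are further copies of a canonical gene. All 77 canonical members and 8 of the 12 other copies had enough reads to be tested, so 85 members entered the tests and 4 did not.

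RNA was sequenced from wild-type mouse tracheal basal stem cells, the progenitors at the base of the airway lining, grown as primary cells at an air-liquid interface, where cells on a membrane are exposed to air from above. The 3 groups were day 1, day 3 and day 5 of that culture, with 3 libraries each, and the submitters call them the stages of proliferation, stratification and luminal specification. The labels give no strain, age or sex of the mice. Nothing in them says that the 3 libraries of a day are separate cultures or animals, so each p-value reflects the spread among the libraries at hand, which may be technical. All 3 comparisons are between days of 1 culture system, and each day enters 2 of them.

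Ribosomal protein genes are known for moving together, because each ribosome needs one copy of nearly every protein. Most of their messenger RNAs begin with a 5′ terminal oligopyrimidine tract (TOP), a C followed by a run of C and T bases, which binds LARP1 and puts their translation and stability under the growth-sensing kinase mTOR. Some members have other roles: Rpl5 and Rpl11 join 5S rRNA and bind Mdm2, the ligase that degrades p53, and Rplp0, Rplp1 and Rplp2 form the stalk that recruits elongation factors. A few paralogs replace a canonical protein in particular tissues, such as Rpl3l in heart and skeletal muscle and Rpl10l and Rpl39l in testis.

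The start of the transcript was read for members matched by symbol to the RefSeq promoter table (build GRCm38.p6, another build than the authors' GRCm39). The windows hold 10 bases before the annotated start and 20 from it on, on the strand of the gene, written 5′ to 3′, with the tract in capitals. The tract searched was a C followed by at least 5 bases that were each C or T, on the gene's strand only, beginning within 5 bases of the annotated start. The first 8 windows, of members whose values are described below, contain it, and the last 5 do not. In Rpl7a the run of C and T bases begins further upstream, and the capitals mark only the part from within 5 bases of the start.
Rpl38 (chr11:114668570-114668599, plus strand): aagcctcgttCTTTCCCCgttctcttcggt
Rplp2 (chr7:141447641-141447670, plus strand): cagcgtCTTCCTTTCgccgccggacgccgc
Rps2 (chr17:24720053-24720082, plus strand): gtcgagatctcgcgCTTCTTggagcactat
Rpl7a (chr2:26910797-26910826, plus strand): ctcttCTTTCTTTCTCCagcagccgagcaa
Rpl15 (chr14:18270967-18270996, minus strand): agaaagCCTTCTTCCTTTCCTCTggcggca
Rpl13a (chr7:45128726-45128755, minus strand): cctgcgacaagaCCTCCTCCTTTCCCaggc
Rps27 (chr3:90213629-90213658, minus strand): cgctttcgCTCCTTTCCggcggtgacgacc
Rpl22l1 (chr3:28805498-28805527, plus strand): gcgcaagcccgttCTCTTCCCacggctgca
Rpl4 (chr9:64173377-64173406, plus strand): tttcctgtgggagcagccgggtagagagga
Rpl10 (chrX:74270806-74270835, plus strand): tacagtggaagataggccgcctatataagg
Rps7 (chr12:28635934-28635963, minus strand): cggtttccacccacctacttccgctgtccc
Rps27l (chr9:66946076-66946105, plus strand): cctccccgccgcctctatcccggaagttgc
Rpl7l1 (chr17:46782637-46782666, minus strand): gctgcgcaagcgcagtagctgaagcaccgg
A tract was found in 25 of the 57 matched canonical members (43.9%) and in 2 of the 7 matched other copies (28.6%). It was found in 11.9% of all 27025 genes with a start in the table. A match describes the letters of the annotated start and not the start used in these cells, and no match says only that these letters are not in this window.

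Together the 89 members took 5.65%, 5.39% and 5.25% of all reads in the 3 libraries of day 1. On day 3 they took 13.4%, 13.1% and 10.8%, and on day 5 4.61%, 6.35% and 7.17%. All day 3 libraries lay above all others, while days 1 and 5 overlapped. The day means were 5.43 ± 0.204%, 12.4 ± 1.43% and 6.04 ± 1.31% (SD, n = 3), so the day 3 share was 2.29 times that of day 1 and the day 5 share 0.486 times that of day 3. The 2-sided exact permutation test gave p = 0.1 for both steps, the smallest p that 3 against 3 libraries allow, and p = 0.5 for day 5 against day 1 (Benjamini-Hochberg adjusted 0.15, 0.15 and 0.5). The 46 large subunit members took 3.11%, 7.01% and 3.46% of reads on the 3 days, and the 31 small subunit members 2.24%, 5.32% and 2.53%. In bulk RNA, a change in how many cells of a type are present and a change in RNA per cell cannot be told apart.

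**Figure D1:**
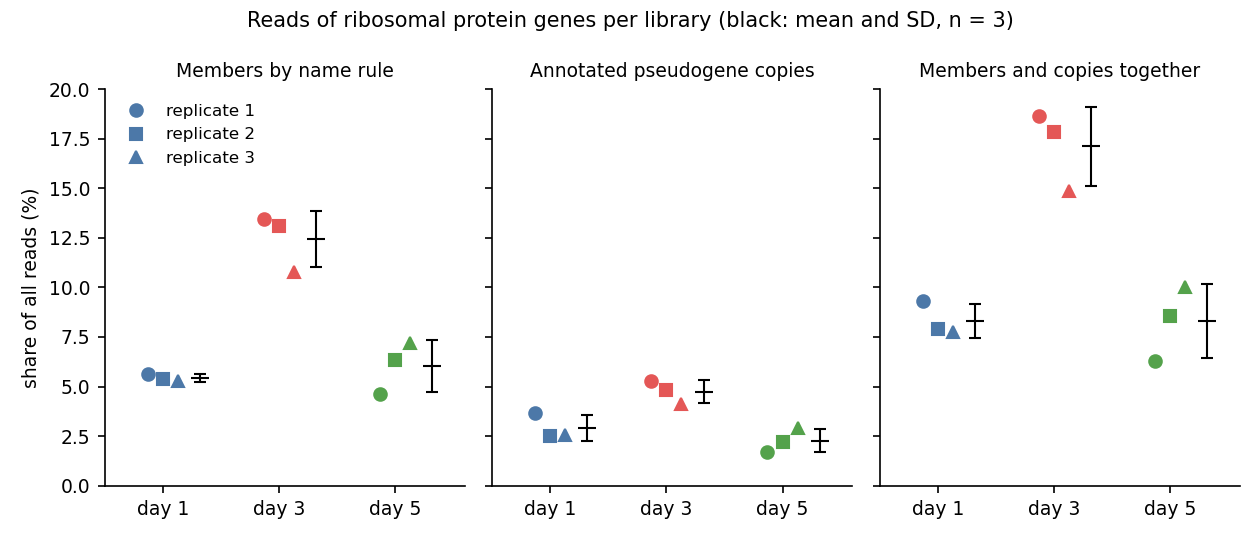
Share of all reads (%, vertical axis) per library on days 1, 3 and 5 (horizontal axis), in panels for the 89 members, their annotated pseudogene copies, and both together. Points are libraries and black marks are the day mean ± SD (n = 3); the members' day 3 libraries, at 10.8% to 13.4%, lie above every library of days 1 and 5.

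Facts of the whole series touch these shares. Reads recovered from the deposited counts, of which the shares are given, numbered 26.5 to 35.1 M per library on day 1. They numbered 19.5 to 24.6 M on day 3 and 16.4 to 19.3 M on day 5, so depth differed between days without overlap. The mitochondrial genome took 3.28%, 2.74% and 6.23% of reads on the 3 days. The 6 basal cell markers and the 4 epithelial markers all had reads. The basal sum per library was 228754 to 247569 normalized counts for day 1, 367345 to 423968 for day 3 and 205380 to 285490 for day 5, but its members moved apart on day 3. Krt15 went from a mean of 62675 to 302633 and Ngfr also rose, while the other 4 were called lower, Krt5 from 108199 to 82486, Krt14 from 38820 to 9822, Trp63 and Itga6 (limma; median of the 6 markers -0.80). All 7 leukocyte markers summed to 4.02 to 24.8 normalized counts in any library, with Tyrobp at 0 in all 9, and the 7 endothelial and muscle markers to 15.8 to 39.6. The 6 fibroblast markers summed to 4.07 to 14.9 for day 1, 4.02 to 8.88 for day 3 and 103 to 130.5 for day 5, most of the last being Dcn, which was at 0 on days 1 and 3 and at 112 ± 16.1 on day 5. The part of these in the members' values was not tested.

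Levels within the family were compared per kilobase of transcript, using lengths from GENCODE M21. The median canonical member stood at 18875, 49465 and 20086 normalized counts per kilobase on days 1, 3 and 5. On day 1 the highest were Rpl41, the shortest protein of the family, at 53916 per kilobase, the stalk protein Rplp1 at 47132, Rps24 at 46556 and Rps2 at 39989. The lowest were Rpl24 at 81.8, Rps10 at 242, Rpl13a at 1356 and Rps15a at 1813 per kilobase. These low values are uncertain. The exons of Rpl24, Rps10 and Rpl13a overlap other genes on the same strand over 71.5%, 70.8% and 59.3% of their length, and the annotated length of Rps15a, 5130 bases, is long for this family.

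The family rose on day 3. Of the 77 canonical members, 75 were called higher on day 3 than on day 1 and 0 lower, and of all 85 tested members 79 were higher and 1 lower (limma, Benjamini-Hochberg adjusted p up to 0.05 over all 17338 tested genes). Over all tested genes 36.1% were called higher and 37% lower. The libraries of the 2 days did not overlap in 80 of the 85 members, against 37.9% of tested genes with day 3 wholly above and 39.4% with day 3 wholly below. The median change of the canonical members was 1.56 on the log2 scale (2.94-fold), with quartiles at 1.25 and 1.76, beside a median of 0.00 over all tested genes. The large subunit, at 1.58, and the small subunit, at 1.54, had close medians. Of the 79 higher calls, 69 held in every alternative setting run, which numbered 21 per member and 20 for the retrogenes Rps3a2, Rps3a3, Rpl32l and Rpl6l, whose reads were added to the parent gene in the setting with copies summed. The settings changed the size of the median: it was 1.29 with scaling by total reads, which moved the median of all tested genes to -0.24, and 0.95 with quantile normalization.

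The members with known roles outside the ribosome rose, as did 75 of the 77 canonical members, whose median change was 1.56. Rpl5 had 23678, 22000 and 21536 normalized counts on day 1 and 80978, 75189 and 56858 on day 3 (log2 change 1.65 ± 0.195 SE, limma adjusted p = 2.55e-05). Its partner Rpl11 rose by 1.23 ± 0.185 (adjusted p = 0.000141). Rps6, the substrate of S6 kinase, rose by 1.28, and Rpsa, also known as the laminin receptor, went from 31064, 33076 and 31925 to 129640, 119508 and 82344 normalized counts. Each of these genes was higher in every day 3 library than in any day 1 library. Rps27a, made as a fusion to ubiquitin, rose by 1.55. Of genes often used as references in expression assays, Rplp0 rose by 1.26, Rpl13a by 1.25 and Rps18 by 1.27. Of the 50-base words (stretches of 50 bases) of Rpl5, Rps6 and Rps18, 93.8%, 84.6% and 86.7% occur in other genes. Annotated pseudogene copies held 20.4%, 44.0% and 4.02% of the summed reads of these genes and their copies. Exons of other genes on the same strand cover 59.3% of Rpl13a. The levels of these 4 genes are therefore uncertain.

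To ask which members departed from the family, the median log2 value of the canonical members was subtracted in each library and the same limma test was run, so that a departure is a change relative to the family. On day 3 against day 1, 16 canonical members lay above the family and 23 below, and 6 of the other copies also lay below it. Over all tested genes 6.42% lay above and 71.5% below this median. The number of departing members was 45, and it fell to 29 without day 3 replicate 1 and to 28 without day 3 replicate 2. Those held in all alternatives run for the gene were Rpl38, Rplp2 and Rps14 above the family. Below it these were Rpl3, Rpl4, Rpl7a, Rpl10, Rpl10a, Rpl12, Rpl15, Rpl23a, Rps2, Rps7 and Rps10, with the copies Rpl7l1 and Rps3a3 (the latter in 20 alternatives). For Rpl7a, Rpl10, Rpl15, Rpl23a, Rps2 and Rps10, over 50% of the reads of the gene and its annotated pseudogene copies lay in those copies. The plot of ranked changes shows all 85 in order.

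**Figure D2:**
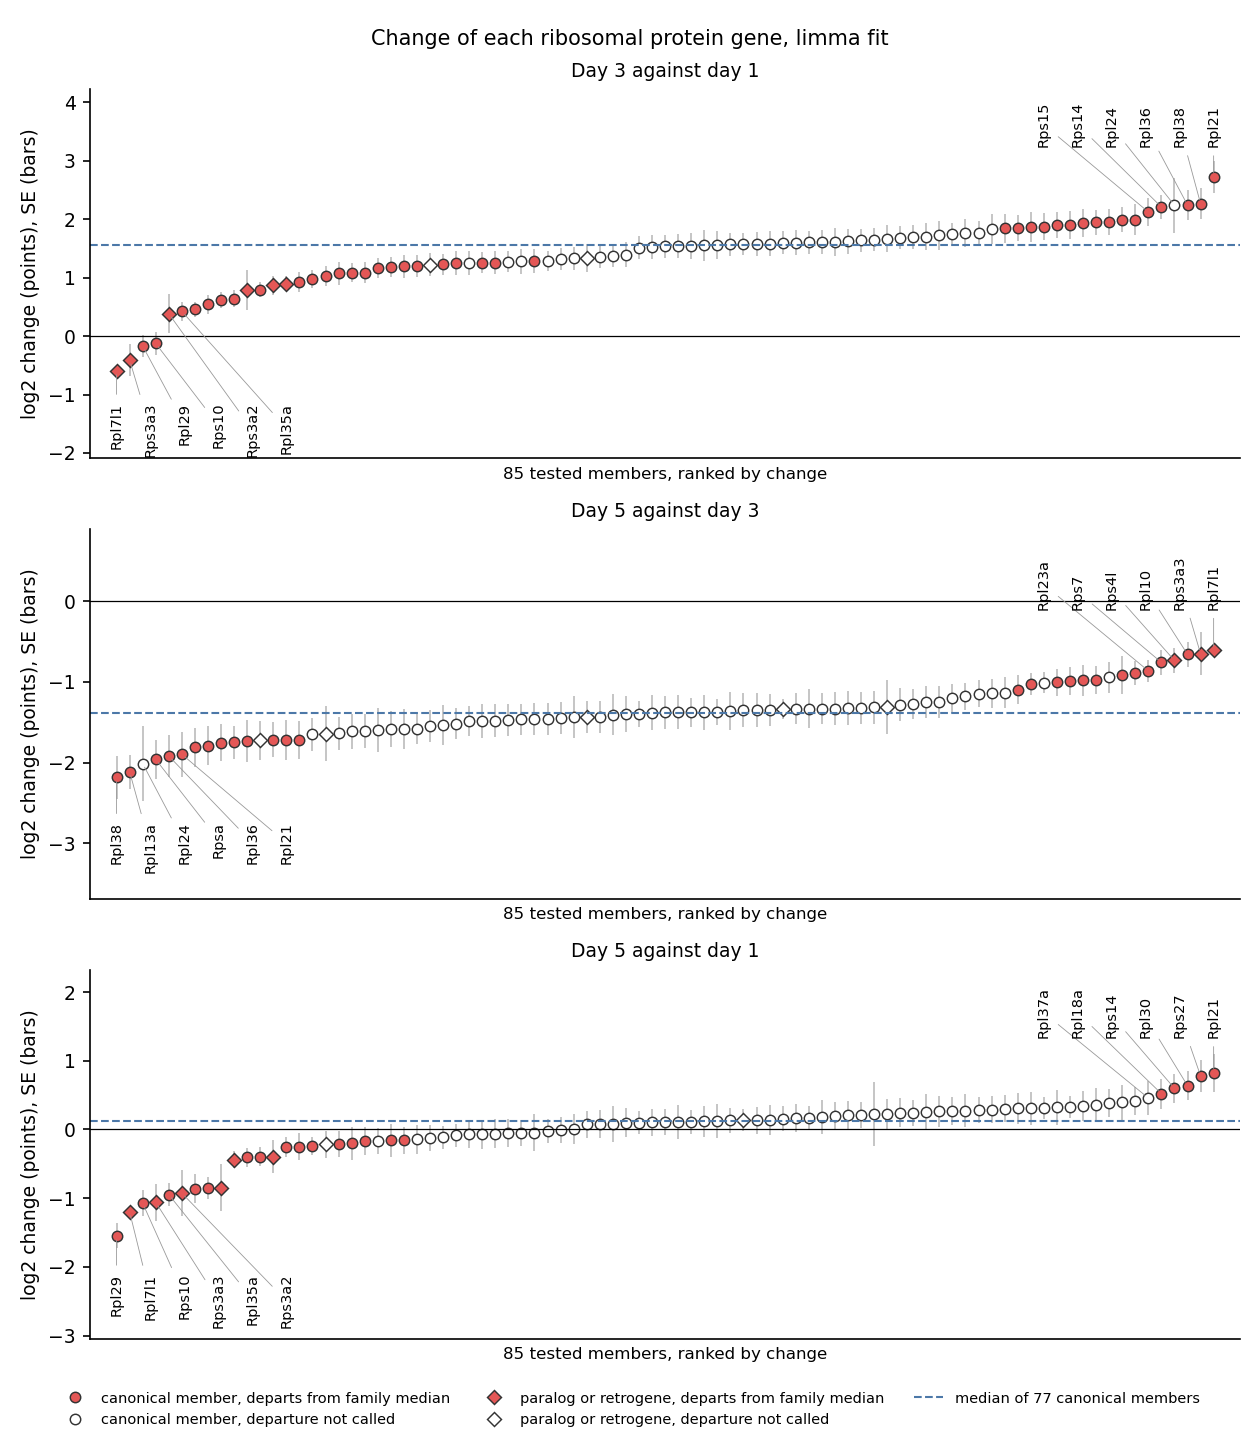
The 85 tested members ranked by log2 change (vertical axis, with SE bars) in the 3 comparisons between days, 1 panel each; the horizontal axis is the rank. Red filled points depart from the median of the 77 canonical members (dashed line) at adjusted p up to 0.05, and diamonds are paralogs and retrogenes; most points of day 3 against day 1 lie above 0, and Rpl7l1 is the lowest.

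Rpl38, a large subunit protein known from mouse patterning mutants, had 5057, 4516 and 4340 normalized counts on day 1, 27449, 24333 and 16490 on day 3 and 3162, 5457 and 6786 on day 5. Its day 3 libraries did not overlap the others. It rose by 2.27 ± 0.261 on the log2 scale on day 3, 0.71 ± 0.146 more than the family (adjusted p of the departure 0.000741). Rpl36, of the large subunit, had 9103, 9074 and 8683 counts on day 1 and 52574, 46590.3 and 30918 on day 3, a rise of 2.24, 0.69 above the family (adjusted p = 0.000414), but its departure was 0.15 after removal of the length and GC trend (adjusted p = 0.203). Rps15 rose by 2.12, 0.57 above the family (adjusted p = 0.000688), and its departure was 0.04 after removal of that trend (adjusted p = 0.749). Rps14, a small subunit protein, had 12246, 12711 and 12811 counts on day 1 and 67451, 63770 and 45680 on day 3, a rise of 2.21, 0.65 above the family (adjusted p = 0.000284). Of the stalk proteins, Rplp2 departed by 0.44 ± 0.128 (adjusted p = 0.00768), Rplp1 by 0.05 (adjusted p = 0.667) and Rplp0 by -0.30 (adjusted p = 0.0334). The call for Rplp0 held in 11 of 21 alternatives. Differences between the 3 stalk genes themselves were not tested.

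Rpl4 rose least among the members with few reads in copies elsewhere in the genome. This core large subunit protein had 38308, 39752 and 37335 normalized counts on day 1, 61117, 63062 and 55471 on day 3 and 27094, 34553 and 36096 on day 5. Days 1 and 3 did not overlap, and its change of 0.64 ± 0.147 (adjusted p = 0.00251) was -0.92 ± 0.146 relative to the family (adjusted p = 0.0001). Only 0.341% of the reads of Rpl4 and its copies lay in copies. The direction of its change depended on the scaling, being -0.21 with quantile normalization (adjusted p = 0.117), while it stayed below the family there. Rpl3, a catalytic centre protein, changed by 1.03 (departure -0.52, adjusted p = 0.00222) and Rpl10, which joins the subunit last, by 0.97 (departure -0.58, adjusted p = 0.00281). Rps2, near the entry of the messenger RNA, had 35062, 43860 and 40805 counts on day 1 and 58273, 59851 and 55397 on day 3. It changed by 0.54 (departure -1.01, adjusted p = 0.000142), and by 0.27 with scaling by total reads (adjusted p = 0.0687). With quantile normalization it was called lower, at -0.33 (adjusted p = 0.0278), and it was at -0.22 after removal of the length and GC trend (adjusted p = 0.214). Unlike Rpl4, Rpl10 and Rps2 had 67.6% and 70.3% of the summed reads in copies, so their levels are less certain.

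Many members have processed pseudogenes, copies of their messenger RNA in the genome, and reads can be split between a gene and its copies. In the table, 1096 rows annotated or named as pseudogenes shared a stretch of 50 bases with a canonical member. These rows were counted as copies of the member with which they shared most, with no minimum share. They took 2.91 ± 0.664% of reads on day 1, 4.73 ± 0.575% on day 3 and 2.27 ± 0.588% on day 5. Replicate 1 of day 1, at 3.68%, stood above the other day 1 libraries, both at 2.53%. Members and copies together took 8.31%, 17.1% and 8.29%. For 12 of the 77 canonical members, over 50% of the summed reads lay in copies, and their median change was 0.70 on day 3 against day 1. The 29 with under 10% in copies had a median of 1.58, and the 36 between these had 1.57. When the copies' reads were added to each member, a setting chosen after seeing the data, the 3 medians were 1.20, 1.56 and 1.45, and the SD over the 77 members went from 0.507 to 0.402.

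Single members moved with this setting in both directions. Rpl29 had 9217, 10488 and 9553 normalized counts on day 1 and 9513, 9072 and 7516 on day 3, which overlap (log2 change -0.17 ± 0.18, limma adjusted p = 0.414). Its 81 copies went from 17521 to 60821, and the sum rose by 1.35, a departure of -0.10 that did not pass the test (adjusted p = 0.409). Rps10, at 146, 177 and 145 counts and then 165, 143 and 121, had 98.3% of the summed reads in 2 copies. With them it rose by 1.09 and stayed below the family (-0.36, adjusted p = 0.0442). Rpl35a, at 0.42 (adjusted p = 0.0353), lost its call when any one of the 3 day 1 libraries, day 3 replicate 1 or 2, or day 5 replicate 2 was left out (adjusted p 0.0511 to 0.117). Its sum rose by 1.69, a departure of 0.24 above the family (adjusted p = 0.0323), while its own row departed below the family. Rpl21 was the highest of all: 3161, 3218 and 2967 counts on day 1, 26725, 22774 and 14349 on day 3 and 3528, 6357 and 7528 on day 5, a rise of 2.73 ± 0.277 (adjusted p = 9.48e-06). With its 81 copies it rose by 1.64, and its departure no longer passed (adjusted p = 0.0615). Rpl7a went the other way: alone it rose by 0.62 (adjusted p = 0.00174), and with 120 copies, which held 57043 counts on day 1 and 51196 on day 3, the sum changed by 0.01. These members are therefore reported as uncertain.

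**Figure D3:**
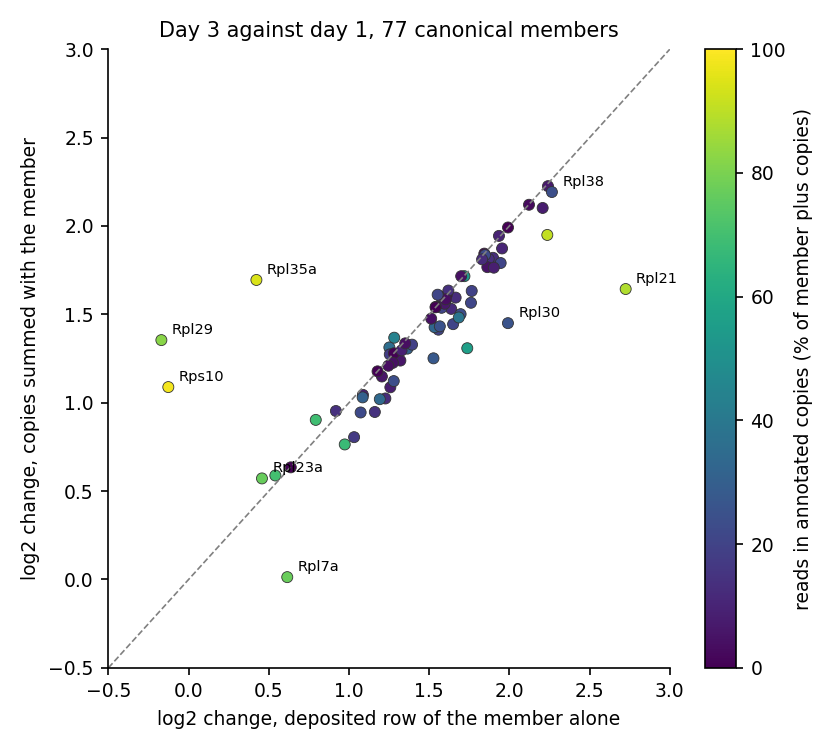
Log2 change of the 77 canonical members on day 3 against day 1 from each row alone (horizontal axis) and with the reads of annotated copies added (vertical axis); colour gives the percent of summed reads in copies. Members with few reads in copies lie near the diagonal, while Rpl29, Rps10 and Rpl35a lie far above it and Rpl21 and Rpl7a below.

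The 12 other copies fell into groups by expression. Rpl10l and Rps12l1 had no read in any of the 9 libraries. The muscle paralog Rpl3l had no more than 2.97 normalized counts in any library, and the testis paralog Rpl39l had a read in 2 libraries only, at 1.97 in day 3 replicate 3 and 2.46 in day 5 replicate 3. The canonical Rpl3, Rpl10 and Rpl39 were all well expressed. None of these 4 copies passed the filter on low values.

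Rps27l, a paralog of Rps27 and a known p53 target, had 3523, 3179 and 2866 normalized counts on day 1, 7939, 8207 and 6229 on day 3 and 1983, 2867 and 3605 on day 5. Day 3 lay above both other days, which overlapped. It rose by 1.22 ± 0.196 on day 3 (adjusted p = 0.000223) and fell by 1.44 on day 5 (adjusted p = 0.000114), and its departures from the family did not pass the test (adjusted p = 0.0705 and 0.83). Rps27 had 7660, 6850 and 6764 counts on day 1, 27141, 24504 and 18287 on day 3 and 8208, 12923 and 16972 on day 5. Per kilobase, Rps27 stood at 20555, 67567 and 36815 on the 3 days and Rps27l at 5940, 13889 and 5248. Of the 50-base words of Rps27, 98.6% occur in other genes, so its level is uncertain.

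Rpl22l1, the paralog of Rpl22 that is known to be held down by it, had 2163, 2038 and 1860 counts on day 1, 3700, 3734 and 3827 on day 3 and 1205, 1664 and 1643 on day 5. All 3 days were apart. It rose by 0.90 ± 0.125 (limma adjusted p = 8.01e-05), -0.66 relative to the family (adjusted p = 0.0112). That departure was 0.05 after removal of the length and GC trend (adjusted p = 0.738), and quantile normalization gave -0.00094 (adjusted p = 0.995). It was also lost without day 3 replicate 1 (-0.54, adjusted p = 0.0603) or replicate 2 (-0.59, adjusted p = 0.056). Rpl22 rose by 1.59 (departure 0.04, adjusted p = 0.803). Per kilobase the pair stood at 3751 for Rpl22l1 and 3603 for Rpl22 on day 1, at 6970 and 10954 on day 3 and at 2793 and 4032 on day 5.

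Rpl7l1, which acts in the assembly of the large subunit, was the one member called lower on day 3. Its counts were 3563, 4039 and 3655 on day 1, 2469, 2532 and 2470 on day 3 and 1565, 1642 and 1693 on day 5, and no libraries of different days overlapped. It fell by 0.59 ± 0.0813 on day 3 (adjusted p = 7.59e-05) and by 0.61 on day 5 (adjusted p = 9.89e-05), and its change from day 1 to day 5 was -1.20 (adjusted p = 3.31e-07). Its departure on day 3 was -2.14 ± 0.23 (adjusted p = 7.85e-06). Only 9.19% of its 50-base words occur in other genes. The canonical Rpl7 rose by 1.09.

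**Figure D4:**
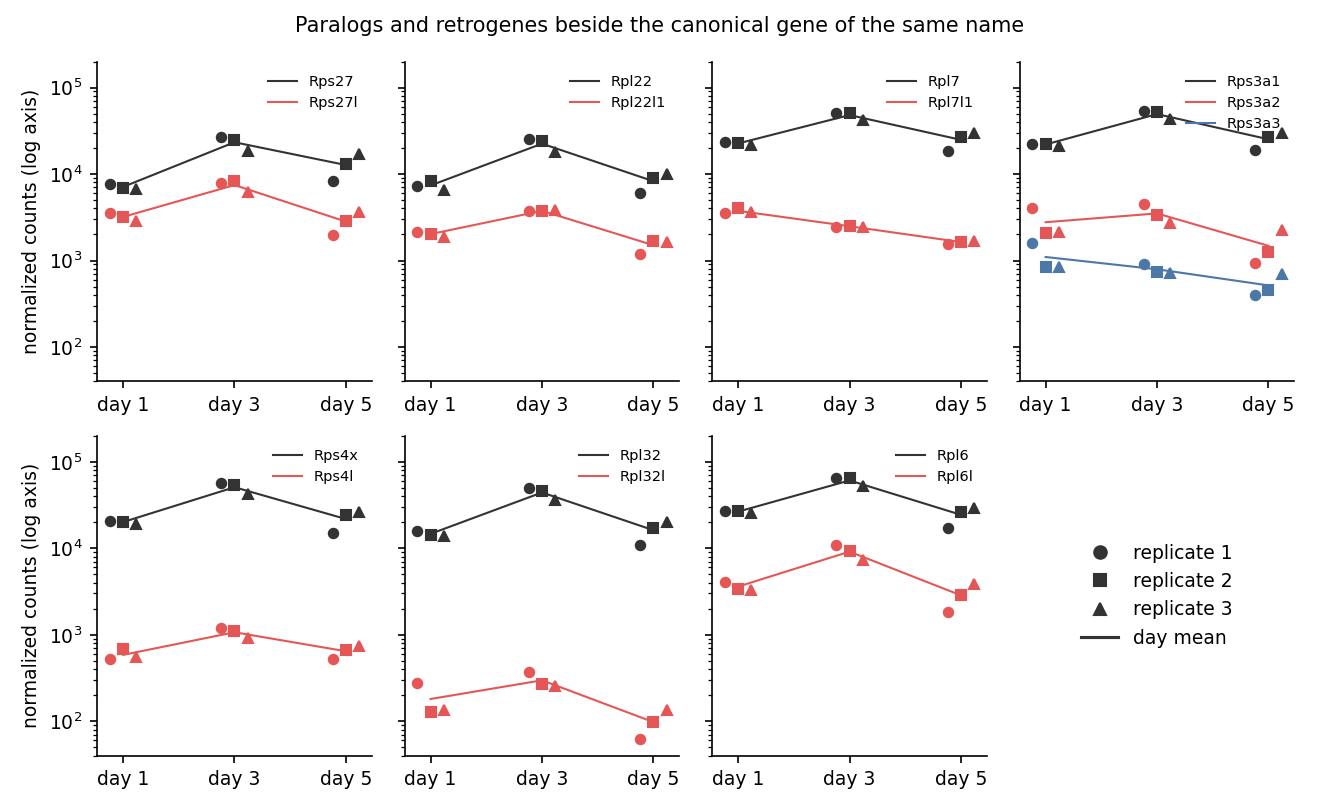
Normalized counts (log axis) of paralogs and retrogenes beside the canonical gene, by day, 1 panel per gene family; points are single libraries. Rpl7l1 declines from day 1 to day 5 while Rpl7 peaks on day 3, and Rps27l and Rpl22l1 peak on day 3 with their canonical genes.

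The retrogenes Rps3a2, Rps3a3, Rpl32l and Rpl6l, annotated as processed pseudogenes, carry more doubt because their reads resemble those of the parent gene. Rps3a2 had 4090, 2093 and 2131 normalized counts on day 1, and Rps3a3 1615, 837 and 842, so day 1 replicate 1 stood apart in both. Neither was called on day 3 (Rps3a2 0.38, adjusted p = 0.32; Rps3a3 -0.41, adjusted p = 0.193), and both lay below the family. The parent Rps3a1 rose by 1.16 (adjusted p = 0.000128). Rps4l rose by 0.87 (adjusted p = 0.000538), and was at -0.15 after removal of the length and GC trend, while its parent Rps4x rose by 1.33 (adjusted p = 0.000149). Rpl6l rose by 1.33 (adjusted p = 0.000507), and Rpl32l, at 0.79, did not pass (adjusted p = 0.0564). It passed with voom (0.78), without day 1 replicate 1 (1.16, adjusted p = 0.0066), and without day 5 replicate 1 (adjusted p = 0.0385) or replicate 3 (adjusted p = 0.0435).

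On day 5 the family fell from its day 3 level. All 77 canonical members and 84 of 85 tested members were called lower and 0 higher (limma), where 32.4% of all tested genes were lower and 34.8% higher. The exception, Rps3a3, was at -0.65 (adjusted p = 0.0524). The canonical median was -1.38 (0.384-fold), and all 85 had no overlap between the day 3 and day 5 libraries, against 34.2% of tested genes with all day 5 libraries below those of day 3. Relative to the family, 11 canonical members fell less and 13 more, with 75.5% and 3.82% of tested genes above and below. That count of departing members, 27 with the other copies, was 15 without day 3 replicate 1 and 15 without day 3 replicate 2.

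Departures on day 5 against day 3 that held in every alternative were Rpl10 and Rps7 above the family and Rpl13a, Rpl38 and Rpsa below it. Rpl10, with 67.6% of the summed reads in copies, went from 34166, 34839 and 31186 normalized counts to 16378, 23390 and 24625. That was a fall of 0.66 (departure 0.74, adjusted p = 0.00058). Rps7 fell by 0.76 (departure 0.64, adjusted p = 0.00105). Under quantile normalization the changes of both were positive, at 0.20 and 0.10. Rpl13a, which leaves the ribosome to repress inflammatory messenger RNAs in myeloid cells, went from 2859, 2721 and 1978 to 400.3, 652 and 726, a fall of 2.11 ± 0.21 (departure -0.72, adjusted p = 0.00296). Exons of other genes on the same strand cover 59.3% of Rpl13a. No alternative dealt with this overlap, so the level and change of Rpl13a are uncertain. Rpl38 fell by 2.18 and Rpsa by 1.96 (departure -0.56, adjusted p = 0.000513). In all 3 genes every day 5 library lay below every day 3 library.

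The net change from day 1 to day 5 was small and depended on the libraries. The canonical median was 0.12, and 4 members were higher and 12 lower, where 36.7% and 37.7% of all tested genes were called. The libraries of days 1 and 5 did not overlap in 16 members, against 38% of tested genes with day 5 wholly above and 38.9% wholly below. Without day 5 replicate 1, whose members' share was the lowest of its day, 46 members were called (36 higher, 10 lower) and the median was 0.36. In that setting 6479 of all 17338 tested genes were called higher and 6598 lower. Without day 5 replicate 3 the median was -0.03. Scaling by total reads gave 10 higher and 11 lower, and quantile normalization 37 higher and 9 lower. Of all tested genes, 6615 were higher and 6120 lower with the first, and 6257 and 6700 with quantile normalization. The higher members were Rpl21, Rps27, Rpl30 and Rps14, at 0.83, 0.78, 0.64 and 0.60. Of these, Rps27 alone held without each library in turn, while Rpl21 and Rpl30 were lost without day 1 replicate 3 or day 5 replicate 2 or 3 (adjusted p 0.0508 to 0.0761) and Rps14 when any one library of day 1, or day 5 replicate 2 or 3, was left out (adjusted p 0.0554 to 0.0958). Rps27 alone also kept its call with the copies' reads added. In that setting Rpl21 was at 0.39 (limma adjusted p = 0.141), Rps14 at 0.49 (adjusted p = 0.0532) and Rpl30 at 0.04 (adjusted p = 0.871).

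Of the 12 lower members, Rpl13a (-0.86, adjusted p = 0.0035), Rps2 (-0.85, adjusted p = 0.000616), Rpl7l1 and Rps3a3 (-1.06, adjusted p = 0.00444) held in every alternative run, 20 for Rps3a3 and 21 for the others. None of these runs dealt with the same-strand overlap of Rpl13a, so its change remains uncertain. Rpl29, at -1.55, Rps10, at -1.07, and Rpl35a, at -0.95, held without each library in turn and not with the copies' reads added. Rpl22l1 was at -0.44 (adjusted p = 0.00838) and at 0.13 after removal of the length and GC trend. Rpl23a (-0.41) and Rpl7a (-0.39) were lost without day 1 replicate 2 (limma adjusted p = 0.0539 and adjusted p = 0.0726), and Rpl7a without day 1 replicate 3 (adjusted p = 0.0635). With quantile normalization Rpl23a was at -0.04 (adjusted p = 0.75) and Rpl7a at -0.10 (adjusted p = 0.368). After removal of the trend Rpl23a was at -0.20 (adjusted p = 0.277). Rps3a2 (-0.93) was lost without day 1 replicate 1 (-0.61, adjusted p = 0.11) or day 5 replicate 1 or 2, and Rpl32l (-0.85) without day 1 replicate 1 (-0.49), day 3 replicate 2 or 3, or day 5 replicate 1 or 2. Relative to the family, 5 canonical members lay above and 15 below, with 27.6% and 33.7% of tested genes, and the 26 departing members became 15 without day 5 replicate 2 and 17 without day 1 replicate 2, day 1 replicate 3 or day 5 replicate 3.

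Members are short, and over all genes the change on day 3 went with transcript length. Among tested genes outside the family, the shortest of 10 equal classes, with a median length of 474 bases, had a median change of 0.72, and the longest, at 6601 bases, -0.89. In the same shortest class 27 canonical members had a median of 1.70, and in the next class (median length 870 bases) 37 members had 1.35 where other genes had 0.64. On day 5 against day 3 the classes ran from -1.05 to 0.39 in other genes, and the members of the 2 shortest classes had -1.40 and -1.38. The median trend value at the members' lengths and GC was 0.42 on day 3 against day 1, and with the trend removed the canonical median was 1.09, with 72 of the 79 higher calls kept. In that setting 4 members, 2 of them canonical, were called lower, beside 5827 of all 17046 genes in it. The lowest canonical member there was Rpl29, at -1.03. Within the family, Spearman's rho between change and length over the 77 members was -0.28, with libraries and depth shared by all points. The slope with length (log2 per doubling of length) also varied between libraries of a day. It ran from 0.001 to 0.16 on day 1, from -0.25 to -0.16 on day 3 and from -0.02 to 0.25 on day 5. The highest was in day 5 replicate 1, the library with the lowest members' share of its day. The part of the length trend in the members' changes was not tested.

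**Figure D5:**
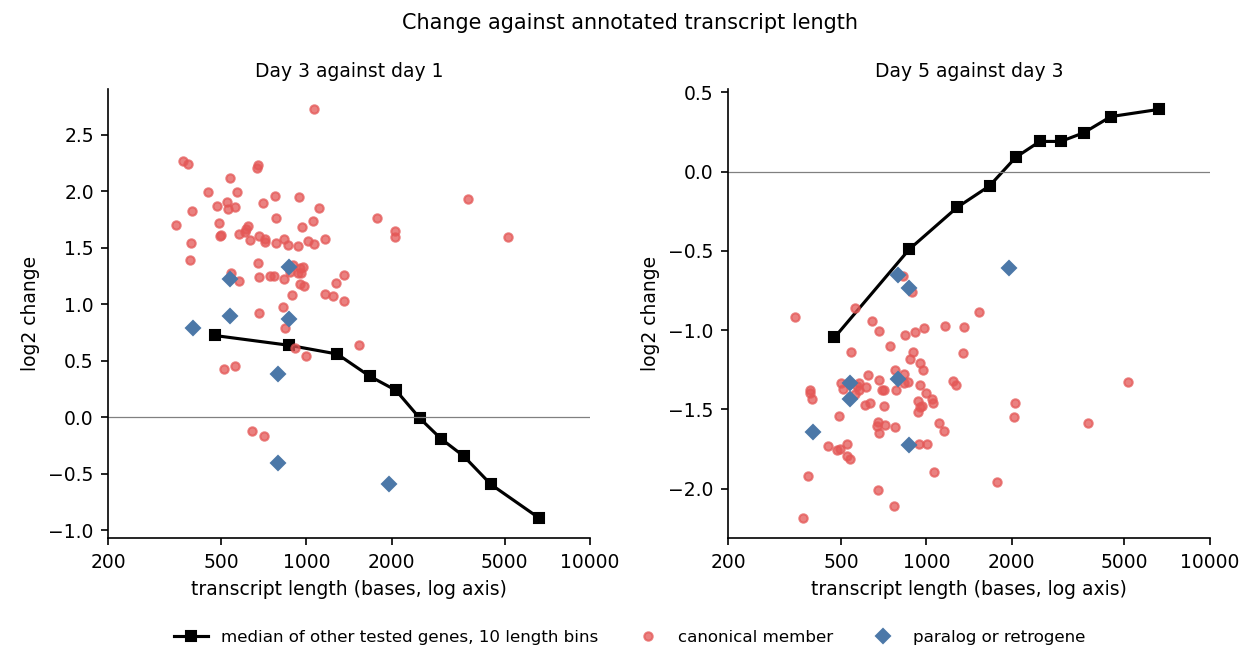
Log2 change against transcript length (bases, log axis) on day 3 against day 1 and day 5 against day 3. Black squares are the medians of other tested genes in 10 length classes, red points the canonical members and blue diamonds the paralogs; most members lie above the squares on day 3 against day 1 and below them on day 5 against day 3 at their length.

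Ribosomal parts outside the name rule that were described were Fau, Rack1, Rpl36al and the retrogenes Rpl37rt and Rps27rt. On day 3, 4 of these 5 were called higher, beside 36.1% of all tested genes, and their median was 1.44. Fau, which encodes Rps30 fused to a ubiquitin-like protein, rose by 1.83 (adjusted p = 4.79e-05), and the small subunit scaffold Rack1 by 1.21 (adjusted p = 0.000127). Rpl37rt rose by 1.76. Rpl36al was at 0.12 (adjusted p = 0.716).

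Other TOP messenger RNAs, which encode mostly translation factors, did not rise as one group. Of 19, 10 were higher and 4 lower on day 3, with a median of 0.22, where 36.1% and 37% of all tested genes were called. Eif3f rose by 1.62 and Tpt1, the translationally controlled tumour protein, by 1.49, while Eif3a fell by 1.92 and Eif2a by 0.71. The elongation factor Eef1a1, which carries transfer RNA to the ribosome, was at -0.40 (adjusted p = 0.0794). On day 5 against day 3, 15 of 19 fell and 0 rose (median -0.71), where 32.4% and 34.8% of all tested genes were called. Among matched canonical members, the 25 with a tract had a median day 3 change of 1.51 and the 32 without one 1.55.

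The genes that build ribosomes went in the other direction on day 3. Of 39 ribosome biogenesis genes, 30 were lower and 3 higher (median -1.06), where 37% of all tested genes were lower and 36.1% higher. On day 5 against day 1, 37 were lower and 0 higher (median -1.90), beside 37.7% and 36.7%. Tsr1, a late small subunit factor, changed by -4.79 on day 3 and the nucleolar factor Utp20 by -2.38, while Nop10 rose by 0.93 and Eif6 by 0.83. Of 11 RNA polymerase I genes, which transcribe ribosomal RNA, 6 fell and 3 rose on day 3, beside the same 37% and 36.1%. Polr1a, the largest subunit, fell by 1.81 and Taf1d by 1.29, and Polr1d rose by 0.78 and Taf1b by 0.48. Of 18 growth regulators, 11 fell and 4 rose, again beside 37% and 36.1%. Larp4 fell by 1.90, Myc by 1.356, Mtor by 0.66 and Larp1 by 0.73 (adjusted p = 5.04e-05), and Rps6kb2 rose by 0.93. The mTOR target Eif4ebp1 rose by 1.04 and then fell by 2.44 on day 5. The biogenesis genes are longer, with a median of 2613 bases against 776 for large subunit members. With the trend removed their median on day 3 was -0.90, with 30 lower and 1 higher.

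Other housekeeping lists rose on day 3 as well. All 36 small respiratory chain genes were higher on day 3 (median 1.72, and 1.30 with the trend removed), and 35 were lower on day 5 against day 3. Beside these stand the 36.1% higher and 32.4% lower of all tested genes. Ndufa2 rose by 2.90 and Ndufa11 by 2.75, both subunits of complex I. Of 77 tested mitochondrial ribosomal protein genes, 60 were higher and 6 lower on day 3 (median 0.90), and 69 were lower on day 5 against day 3 (median -0.97). On day 3, Mrpl14 rose by 2.35 and Mrpl23 by 2.29, while Mrps18b fell by 1.74 and Mrps2 by 0.78. On day 5 against day 1 36.7% of tested genes were higher and 37.7% lower. The respiratory genes were higher in 21 of 36 (median 0.59) and the mitochondrial ribosomal genes lower in 27 and higher in 10 (median -0.12). The cytosolic members lay at 0.12. Whether these lists differ was not tested.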

How the data were processed

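RNA of 9 libraries was sequenced, 3 per day. The submitters' processing notes name HISAT2 2.1.0, the build GRCm39 and DESeq2 1.36.0. For the read counter, annotation and strand setting the entry is: not given in the sources used here. What the authors deposited are log2 values of counts divided by a size factor; 297330 error cells (log2 of 0) were read as 0. Of 57107 lines, 359 repeats were dropped, leaving 56748 genes. The linear value is called a normalized count; whole reads were recovered from it (100% of values within 0.01 of a read). The 17338 genes reaching 10 normalized counts in 3 or more libraries were tested as log2(normalized count + 1), which understates low genes. The test was limma 3.58.1 in R 4.3.3 (1 mean per day, 6 residual degrees of freedom, adjusted p up to 0.05). It was also run on simulated data with independent genes and a fixed spread, which cannot give error rates for a family that moves together. Shares of reads were compared with exact permutation tests. Annotated copies were rows annotated or named as pseudogenes that share any 50-base word with a canonical member, without a minimum share. Each was assigned to the member with which it shares most such words. Transcript lengths (98.3% of tested genes) came from GENCODE M21, build GRCm38.

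The members and lists were chosen with earlier results of these data known. Named by rule were all 12 other copies; per comparison the 4 canonical members departing most in each direction; the 4 highest and lowest per kilobase on day 1; fixed members of known role; and the 2 largest rises and falls of each list, which are described for day 3 against day 1 and not throughout for the other comparisons. Rpl7a, Rpl10a, Rpl12, Rpl15, Rplp2, Rps27a, Eef1a1, Mtor and Larp1 were named after their values were seen. A gene that the rule names without regard to its values is not reported here. Alternatives were pseudocount, filter, scaling, quantile normalization, trend removal, voom, a replicate block and each library left out.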

Additional observations from a re-analysis of the deposited data

How the results depend on the processing

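Of the values for single genes under other settings, 2576 kept their direction and side of the threshold, 57 lost and 49 gained a call, and 12 reversed. The canonical median of day 3 against day 1 was 0.95 with quantile normalization and 1.09 after removal of the length and GC trend (1.46 to 1.70 with each library left out); that of day 5 against day 3 was -1.05 with scaling by total reads, -0.64 with quantile normalization and -0.997 after trend removal (-1.59 to -1.14); that of day 5 against day 1 ran from -0.0324 (without day 5 replicate 3) to 0.36 with each library left out. Members called on day 5 against day 1 numbered 46 with quantile normalization, 33 with the trend removed and 8 with copies summed, and 11 to 46 with each library left out. Departing members numbered 29 on day 3 against day 1 with no filter (28 to 50 with each library left out), 15 to 33 on day 5 against day 3 with each library left out, and 15 with no filter and 48 with the trend removed on day 5 against day 1 (15 to 31 with each library left out). With annotated copies, the share of reads differed by 8.805, -8.82 and -0.0183 percentage points, the last reversed from 0.612. The setting with copies summed and that with annotated copies were chosen after seeing the data. The cause of these differences was not tested.

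Reversed on day 3 against day 1 were Rpl29 (1.35) and Rps10 (1.09) with copies summed, Rpl4 (-0.21) and Rps2 (-0.33) with quantile normalization, and Rps2 (-0.22) and Rps4l (-0.15) with the trend removed. On day 5 against day 3 these were Rpl10 (0.20) and Rps7 (0.10) with quantile normalization. On day 5 against day 1 they were Rack1 (-0.38), Rpl22l1 (0.13) and Rps4l (-0.40) with the trend removed and Rpl35a (0.31) with copies summed.

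With the replicate number as a block, 79, 84 and 15 members were called in the 3 comparisons and 34, 18 and 18 departed from the family. Deviations of same-numbered libraries correlated at -0.31 to 0.14, so the numbers were not taken as pairs.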
